A study of Bos taurus and Mus musculus with 16 samples.

Results

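Interferon tau and the pregnancy-associated glycoproteins (PAGs) are the proteins by which the ruminant trophoblast, the outer epithelium of the conceptus, acts on its mother. Interferon tau is a type I interferon that the trophectoderm secretes in the period before attachment. It keeps the corpus luteum from regressing and so signals the presence of an embryo. The PAGs are secreted glycoproteins of the aspartic peptidase family, many of them without enzyme activity, and PAGs in the cow's blood are used to diagnose pregnancy. The genes described here are the rows of the bovine expression table with the symbol PAG2, PAG11 or IFNT2, or with any other symbol made of IFNT or PAG and a number. PAG1 was set aside, since under that symbol the gene annotation of the assembly ARS-UCD2.0 places a gene on chromosome 14, away from the PAG cluster, and gives the pregnancy glycoprotein the symbol LOC281964. This rule found 4 of the 14852 genes in the table, namely PAG2, PAG11, IFNT3 and IFNT2. In the same annotation both PAGs lie on chromosome 29 and both interferon tau genes on chromosome 8. These genes were chosen with earlier results of the same data known.

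Polyadenylated RNA of bovine blastocysts at day 7.0 after fertilization was sequenced by Smart-seq2 in 12 libraries. The 6 edited libraries came from zygotes that received mRNA of BE3, a cytosine base editor built from a Cas9 nickase and a cytidine deaminase, together with a mix of single guide RNAs against TEAD4. The 6 control libraries came from zygotes that received BE3 mRNA without guide RNA, so the editor is common to both groups and effects of the guides other than editing of TEAD4 cannot be told apart from it. TEAD4 is the DNA-binding partner of the Hippo pathway co-activators YAP1 and WWTR1. The sources used here do not say how many embryos a library held or whether libraries stem from different injection sessions. The p-values therefore measure the spread between these libraries, which may be technical.

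The libraries held 817329 to 2259064 reads assigned to genes in the edited group and 934078 to 2501592 in the control group. The ribosomal RNA gene RN18S1 took 9.27% to 19.7% of them in edited and 12.4% to 36.6% in control libraries, with the highest share in control library 6. Of 25 trophectoderm markers 24 were present, and their summed level was 13460 to 28842 normalized reads in edited and 16240 to 28587 in control libraries, with the keratin gene KRT8 at a mean of 10135 and 9056. Markers of the inner cell mass (19 of 22 present) summed to 2127 to 2612 in edited and 1811 to 2770 in control libraries, and those of the primitive endoderm (17 of 18) to 5192 to 8054 and 4353 to 7521. Among the primitive endoderm markers LAMA1, a laminin gene named for its value, averaged 8.39 ± 6.13 normalized reads in edited and 28.9 ± 7.83 in control libraries without overlap, as in 0.248% of tested genes. Its log2 fold change was -1.89 (limma adjusted p = 0.259), and DESeq2 called it. The 13 tested primitive endoderm markers had a median log2 fold change of 0.02, and 6 of them were negative, LAMA1 included. Markers of blood cells summed to 4.24 to 24.7 normalized reads in edited and 10.8 to 39.8 in control libraries, and those of spermatozoa to 0 to 24.1 and 0 to 33.5. The cumulus and granulosa list summed to 16.2 to 82.1 in edited and 21.4 to 199.7 in control libraries, and 8 of its 15 genes were present. Of these, HSD3B1 averaged 16.3 ± 23.1 in edited and 54.0 ± 73.4 in control libraries (SD, n = 6 each). The other genes present averaged 1.52 to 6.31 over all 12 libraries. HSD3B1 and CYP19A1 are also in the list of trophoblast endocrine genes below, so this sum is not specific to cumulus and granulosa cells. TEAD4 itself stood at 22.6 to 65.6 normalized reads in edited and 61.2 to 124.9 in control libraries, a difference of -1.25 ± 0.25 on the log2 scale (SE, n = 6 each) that missed the threshold over all genes (limma adjusted p = 0.235). In the authors' deposited table TEAD4 passed (adjusted p = 0.0142). Base editing changes bases and need not lower the RNA of its target.

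PAG2 encodes a glycoprotein of the evolutionarily older group of PAGs, which is made across the trophoblast, whereas the younger PAGs are typical of its binucleate cells. A normalized read is a read count divided by the library's size factor. In the edited libraries 1 to 6, PAG2 had 11.0, 11.1, 138.6, 26.1, 7.46 and 19.2 normalized reads. In the control libraries 1 to 6 it had 78.9, 6.16, 167.7, 49.1, 126.1 and 205.6. All but 1 of the edited libraries were thus low, and all but 1 of the controls were higher than every one of those low edited libraries. Edited library 3 lay among the high controls, and control library 2, at 4 reads, was the lowest of all 12, so the groups overlapped. PAG2 averaged 35.6 ± 50.9 normalized reads in edited and 105.6 ± 74.9 in control libraries (SD, n = 6 each), which puts the edited mean at 33.7% of the control mean.

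**Figure D1:**
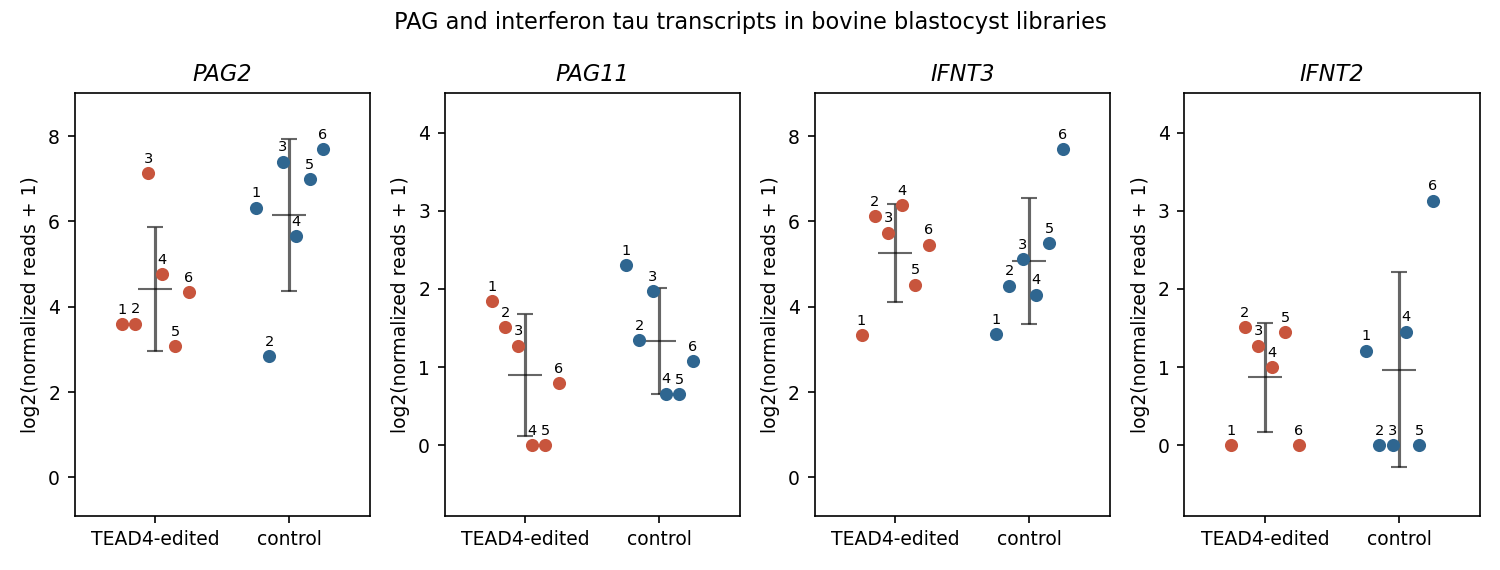
Level of each gene in every library, as log2(normalized reads + 1), for TEAD4-edited (left in each panel) and control blastocysts. Points are libraries with their number, and the bar and whiskers are the mean and SD of 6 libraries. PAG2 was low in 5 edited libraries and high in edited library 3, and was high in 5 controls and low in control library 2. The IFNT3 values of the groups overlapped, with control library 6 above every edited library.

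On the scale of log2(normalized reads + 1) PAG2 differed by -1.73 ± 0.70 (SE), with a 95% interval of -3.19 to -0.27, that is a level of 0.301-fold the control with an interval of 0.109 to 0.827. The unadjusted limma p was 0.0224, and 206 of the 8884 genes tested had a p as low or lower. After Benjamini-Hochberg adjustment over all of them PAG2 did not pass (limma adjusted p = 0.792), nor did it with edgeR (adjusted p = 0.772) or DESeq2 (adjusted p = 0.777) on the recovered reads. Of the 4 members 2 passed the filter on low values, PAG2 and IFNT3, and 0 were called by any of these tools. Of all genes tested, 5.88% had an unadjusted p under 0.05, 3.11% with a lower level in edited blastocysts, and 0.0113% passed after adjustment, a single gene, LOC101905257, which was lower in edited blastocysts. A log2 fold change as large in either direction was seen in 0.0563% of tested genes. PAG2 also varied more between libraries than nearly all genes, as described below, so this share does not set it beside genes of like spread. The authors' deposited table gave PAG2 a log2 fold change of -1.58 ± 0.84 (SE), with a p-value of 0.0609 and an adjusted p of 0.965. Of the 4 members 0 passed there at an adjusted p under 0.05, and 0.0202% of all genes did.

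The PAG2 difference kept its direction whichever library was left out. It was widest without control library 2, at -2.39 (limma adjusted p = 0.477), and without edited library 3, at -2.28 (adjusted p = 0.797). It was narrowest without control library 6, at -1.42 (adjusted p = 0.907), where its interval was -2.94 to 0.10. The interval of PAG2 also took in positive values without control library 3 (-3.01 to 0.04) and without edited library 5 (-2.97 to 0.04). It was negative throughout in each other fit with a library left out. Edited library 3 had the lowest TEAD4 of all 12 libraries, 22.6 normalized reads, beside its 138.6 of PAG2. Control library 2 had 87.7 of TEAD4, within the range of the other controls. The trophectoderm markers summed to 25583 normalized reads in edited library 3 and to 18573 in control library 2, both inside the range of the other libraries. Other sums of edited library 3 were at the end of the edited range. They were the highest for the cumulus and granulosa list (82.1), in which HSD3B1 had the highest mean, secretory genes (11674) and type I interferon signalling (503.6). They were the lowest for blood cell markers (4.24), regulators of these genes (2545) and the aspartic peptidase list (563). The part of these in the PAG2 values, and that of LAMA1, was not tested. With bulk libraries, fewer cells of a type and less RNA per cell cannot be told apart.

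PAG11 encodes another PAG of the older group and was at the limit of detection. The edited libraries 1 to 6 held 4, 1, 1, 0, 0 and 1 of its reads, and the control libraries 3, 1, 2, 1, 1 and 1. These values were too low for the filter of a mean of 10 normalized reads, and no level over 3.94 normalized reads was seen in any library. With 7 reads in the edited and 9 in the control group, the edited level was 0.733-fold the control, with a 95% interval of 0.232 to 2.21 that covers counting error only. At this depth a difference within that range was not detectable. The authors' deposited table listed PAG11 at a p-value of 0.547.

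These were the only PAGs that could be followed. The authors mapped to another build, so the annotation of ARS-UCD2.0 served for names and neighbours alone. It holds 19 numbered PAG genes from PAG2 upwards, and the 2 above were the only ones with a row in the table. Between the outermost PAG genes of the cluster that annotation places 62 genes, and again PAG2 and PAG11 alone had a row. The other PAGs were not analysed here. No gene in the table had fewer than 16 reads over the 12 libraries. PAG genes are near-identical in places, and the sources used here do not say how multiply matching reads were counted, so the split of reads between PAG2, PAG11 and their relatives is uncertain.

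IFNT3, an interferon tau gene, was the interferon tau row with enough reads to be tested. The edited libraries 1 to 6 had 9.08, 68.6, 52.3, 82.3, 21.8 and 42.8 normalized reads of IFNT3. The control libraries 1 to 6 had 9.20, 21.5, 33.5, 18.5, 43.9 and 205.6. All 6 edited and 5 of the control libraries lay between 9.08 and 82.3, library 1 was the lowest in each group, and control library 6 stood apart with 186 reads, the same number as it had of PAG2. IFNT3 averaged 46.1 ± 27.7 normalized reads in edited and 55.4 ± 74.6 in control libraries (SD, n = 6 each), yet the medians ran the other way, 47.6 in edited and 27.5 in control.

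On the log2 scale IFNT3 differed by 0.19 ± 0.58 (SE), with a 95% interval of -1.02 to 1.39 and an adjusted p of 0.957 (limma). The interval leaves room for a level between 0.493-fold and 2.63-fold the control, so the data set no closer bound on a change of IFNT3. Its sign was not stable. Without control library 6 the difference was 0.71 (limma adjusted p = 0.907), and without edited library 1 it was 0.57. It was -0.16 without control library 1, -0.04 without edited library 4, -0.34 with edgeR and -0.30 with DESeq2 on the recovered reads. In control library 6 RN18S1 took 36.6% of the reads, the largest share of any library, and the blood cell markers summed to 39.8 normalized reads, also the highest sum. This library had the lowest inner cell mass sum of all 12 (1811) and, among the lists described below, the highest sums for regulators (3329) and aspartic peptidases (1062). The part of any of these in the IFNT3 value was not tested.

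**Figure D2:**
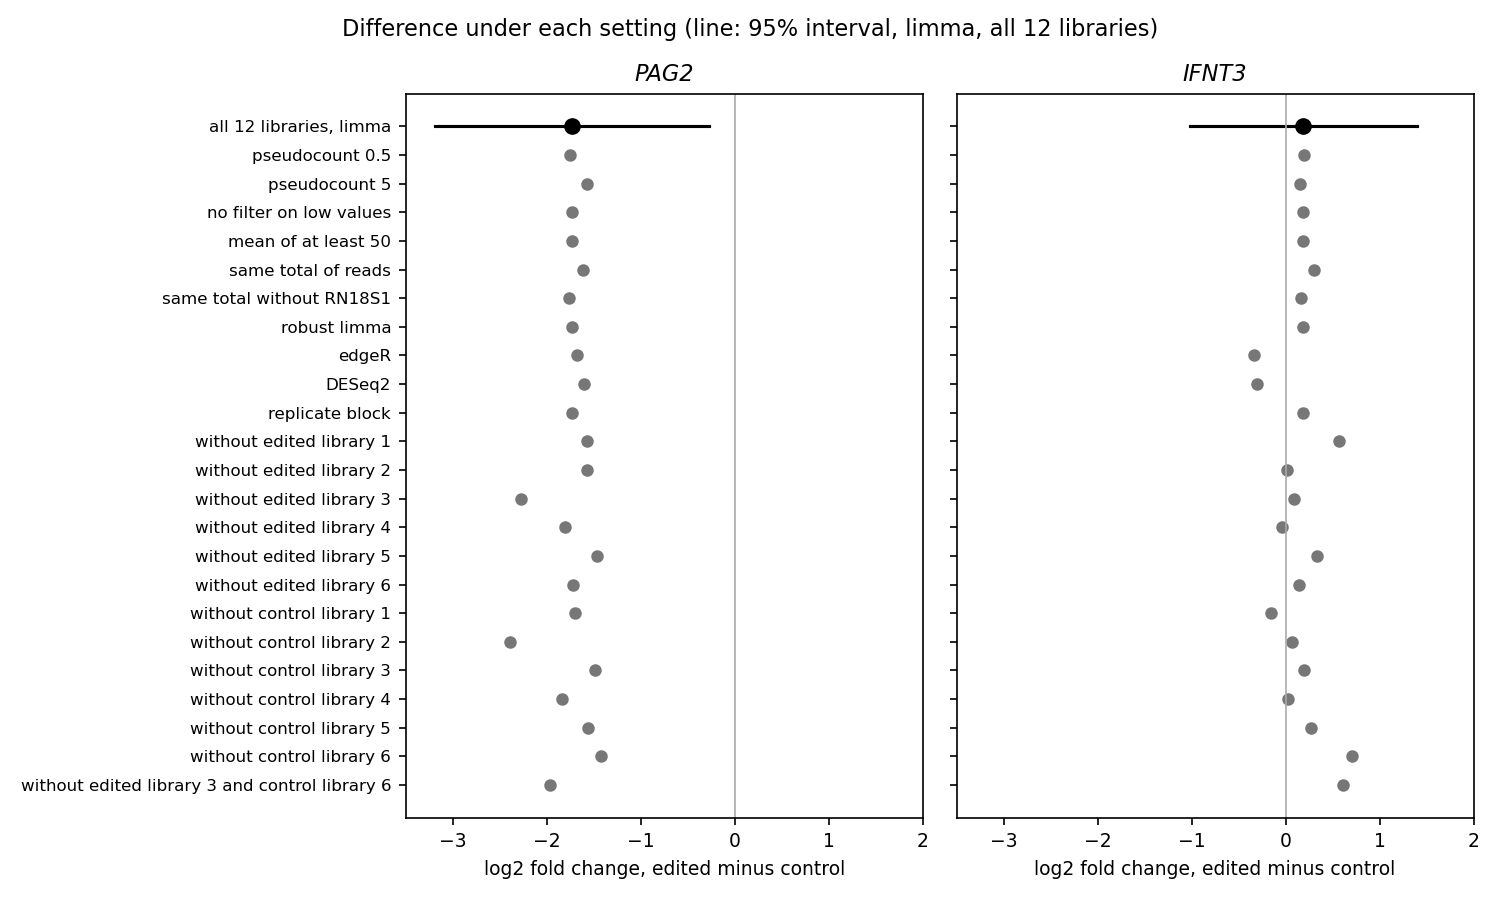
Log2 fold change (edited minus control, x axis) of PAG2 and IFNT3 under each setting (rows), with the 95% interval drawn for the limma fit of all 12 libraries. PAG2 stayed between -2.39 and -1.42 on the left of 0, while IFNT3 fell on both sides of 0, between -0.34 and 0.71.

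IFNT2 encodes another interferon tau and was seen in few reads. The edited libraries 1 to 6 held 0, 1, 1, 1, 3 and 0 of its reads, and the control libraries 1, 0, 0, 3, 0 and 7. A total of 4 edited and 3 control libraries had any read, and 7 of the 11 control reads came from control library 6, the library that also had the most IFNT3. The edited level was 0.514-fold the control over 6 and 11 reads, with a 95% interval of 0.156 to 1.52 for counting error. Apart from control library 6, no library had more than 3 reads, so IFNT2 gave no measure of a difference.

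The table holds 2 further interferon tau genes under symbols outside the rule, IFN-tau-c1 and IFN-TAU, which were added after the table had been seen. IFN-tau-c1 had 14 reads in the edited and 14 in the control group, and IFN-TAU had 9 and 7. Since interferon tau genes share most of their sequence, the 4 were also summed. The sum was 10.4, 77.8, 53.8, 86.3, 26.4 and 49.4 normalized reads in edited libraries 1 to 6, and 13.1, 23.1, 43.7, 22.5, 46.2 and 216.7 in control libraries 1 to 6. The summed values differed by 0.11 on the log2 scale (limma adjusted p = 0.973), against 0.19 for IFNT3 alone.

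Both tested genes varied more from library to library than nearly all others. Among the 6 controls the SD of log2(normalized reads + 1) was 1.78 for PAG2 and 1.48 for IFNT3, beside a median of 0.438 over all tested genes. Only 0.563% of tested genes had a control SD as large as that of PAG2, and 1.09% one as large as that of IFNT3. In the edited libraries the SD was 1.46 for PAG2 and 1.14 for IFNT3, beside a median of 0.409 over all tested genes. The biological coefficient of variation from edgeR, which takes counting noise into account and pools the spread within both groups, was 1.0 for PAG2 and 0.898 for IFNT3, beside a median of 0.254.

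A large part of this spread came from single libraries. Without control library 2 the control SD of PAG2 was 0.829, which 8.90% of tested genes reached over the same libraries. Without control library 6 that of IFNT3 was 0.823, reached by 7.42%. Without edited library 3 the edited SD of PAG2 was 0.668, reached by 13.7%. Each library left out was picked as the one farthest out for that gene, so a fall in its SD follows from the choice. Other genes did not lose their own farthest library, so these shares do not compare like with like. PAG11 and IFNT2, with SDs of 0.684 and 1.25 among the controls, had too few reads for their spread to be set apart from counting noise.

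**Figure D3:**
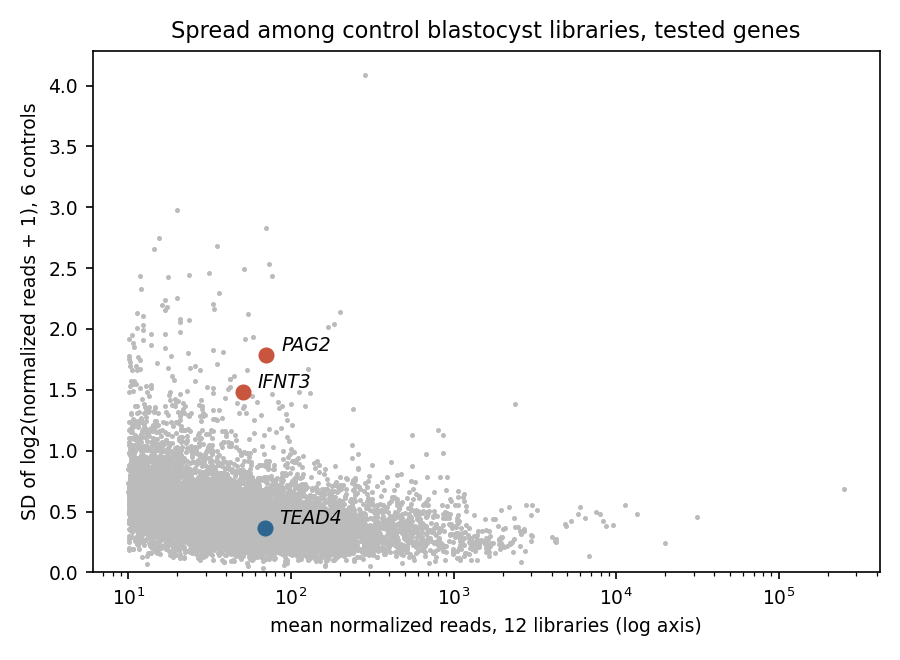
SD of log2(normalized reads + 1) among the 6 control libraries (y axis) against the mean normalized reads over 12 libraries (x axis, log scale) for every tested gene. PAG2 (1.78) and IFNT3 (1.48) sit in the sparse upper edge of the cloud, while TEAD4 (0.368), at a similar mean, sits within it.

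PAG2 and IFNT3 were next set beside each other by library. After each group's mean had been subtracted, Pearson's r between them was 0.46 and Spearman's rho 0.56 over 12 libraries, and r was 0.58 without control library 2 and edited library 3, which lay farthest from the median of PAG2. The value was 0.43 among the 6 edited and 0.49 among the 6 control libraries. Control library 6 had the highest level of both genes, and without it, an alternative chosen after seeing the data, r was 0.35 over 11 libraries and 0.27 among the other 5 controls. Edited library 4 had the most IFNT3 of the edited group, with PAG2 at only 26.1 normalized reads. For PAG2 and TEAD4 r was -0.41 and rho -0.32 over 12 libraries, with r of -0.64 among the edited and -0.18 among the control libraries. For IFNT3 and TEAD4 r was -0.40 and rho -0.48. These values are descriptions of libraries that share their size factors and depth.

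**Figure D4:**
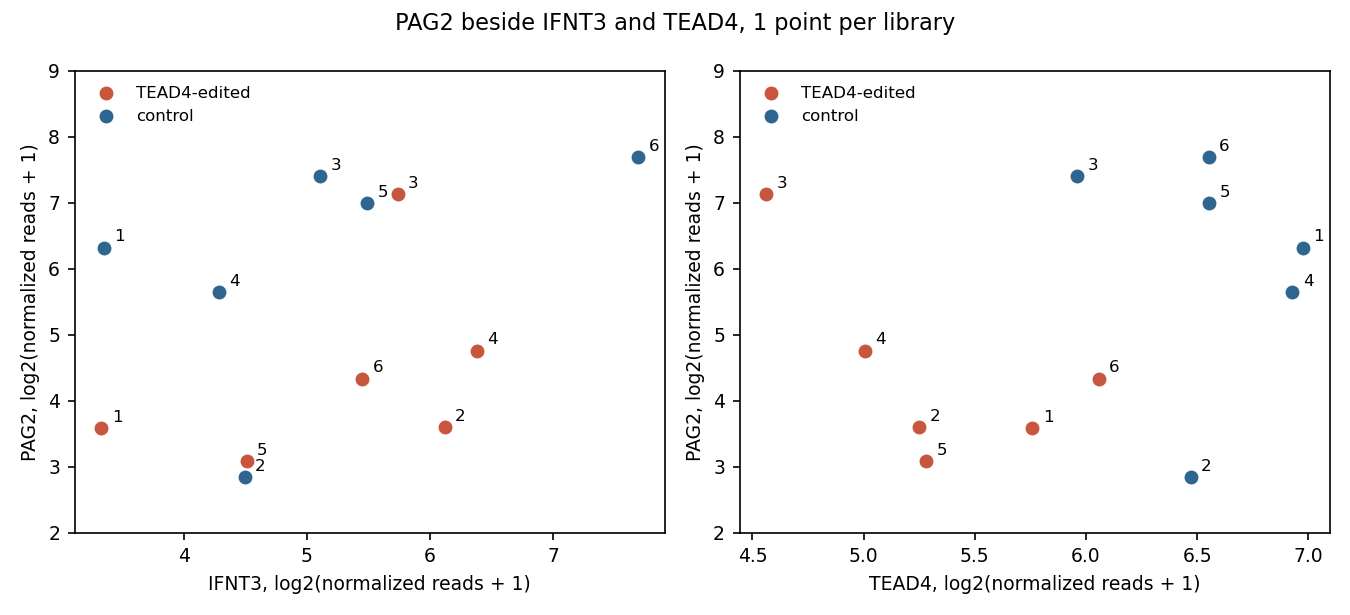
PAG2 (y axis) against IFNT3 (left) and TEAD4 (right), each as log2(normalized reads + 1), with 1 numbered point per library. Edited library 3 combines high PAG2 with the lowest TEAD4, and control library 2 combines the lowest PAG2 with a TEAD4 level inside the control range.

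Among 2290 named genes averaging 100 normalized reads or more, AKR1B1 followed PAG2 most closely across libraries within groups, with r of 0.88 and rho of 0.87 over 12 libraries. AKR1B1 encodes an aldo-keto reductase. Next came PLAU (r = 0.83), which encodes the urokinase-type plasminogen activator, STMN1 (0.82), which encodes the microtubule-destabilizing protein stathmin, PTTG1IP (0.79) and PTMA (0.78), which encodes prothymosin alpha. Their log2 fold changes were 0.20 for AKR1B1, 0.59 for PLAU and 0.33 for PTMA, beside -1.73 for PAG2, and none of these passed (limma). PTMA followed PAG2 mainly in the controls, with r of 0.96 among control and 0.36 among edited libraries. For the other genes named r was 0.77 to 0.95 in either group.

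IFNT3 was followed most closely by HYOU1 (r = 0.87) and HSP90B1 (r = 0.84), both of which encode chaperones of the endoplasmic reticulum. KRT19, a keratin gene of simple epithelia, had an r of 0.81, and AHNAK and the chaperone gene HSPA5 each had one of 0.79. Being the highest of 2290 values, these correlations are inflated by their selection. HSPA5 averaged higher in edited libraries, by 0.66 on the log2 scale, with an unadjusted limma p of 0.00608 and an adjusted p of 0.792.

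Genes known to control interferon tau and the PAGs were next set beside them. ETS2, CDX2, DLX3 and AP-1 factors activate interferon tau promoters, and POU5F1 restrains them. Of 38 such genes listed, 27 were tested, and 0 passed in either direction over all genes (limma), as for each of the lists below. Their median log2 fold change was -0.25, beside 0.01 over all tested genes, and 21 of the 27 were negative. At an unadjusted p under 0.05, 4 were lower and 1 was higher (limma). Over all tested genes 5.88% were under that p in either direction and 3.11% were lower. TEAD4, the edited gene itself, is 1 of the 4 and of the 21. On the recovered reads DESeq2 called TEAD4 in this list (adjusted p = 0.00660) and no gene of the lists below, and edgeR called 0 in all of them. The most abundant were the small GTPase gene RHOA at 606 ± 55.9 normalized reads in edited and 481 ± 140.1 in control libraries, POU5F1 at 310.2 ± 94.8 and 365.5 ± 111, the GATA factor gene GATA3 at 307 ± 71.3 and 306 ± 54.8, and the AP-2 factor gene TFAP2C at 221 ± 22.4 and 283 ± 40.3 (mean ± SD, n = 6 each). TFAP2C had a log2 fold change of -0.35 (limma adjusted p = 0.792). The activators ETS2 and DLX3 had log2 fold changes of -0.49 and -0.44. Those of the AP-1 genes FOS, JUNB and JUND were -0.01, -0.50 and -0.47. CDX2 and the AP-1 gene JUN were under the filter. CDX2 averaged 7.11 ± 3.32 in edited and 9.54 ± 7.27 in control libraries, and JUN 8.60 ± 5.87 and 8.70 ± 5.77.

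The embryo's own side of interferon signalling was expressed at modest levels. Type I interferons act through the receptor IFNAR1 and IFNAR2, the kinases JAK1 and TYK2, and factors that include STAT2 and IRF9. Of 12 genes of this pathway 11 were present and 6 tested, with a median log2 fold change of -0.04 and 0 at an unadjusted p under 0.05 (limma). JAK1 averaged 41.5 ± 9.05 normalized reads in edited and 52.0 ± 6.60 in control libraries (SD, n = 6 each), while the phosphatase gene PTPN11 and the STAT inhibitor gene PIAS1 had log2 fold changes of -0.22 and 0.28. IFNAR1 was under the filter, at 7.51 ± 6.78 in edited and 10.6 ± 4.84 in control libraries.

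Interferon-stimulated genes, the usual readout of type I interferon in exposed tissue, were next. Of 50 listed, 28 were present and 13 tested, with a median log2 fold change of -0.06. The list summed to 498 to 851 normalized reads in edited and 593 to 847 in control libraries. B2M, the light chain of class I histocompatibility molecules, averaged 206 ± 74.9 in edited and 207 ± 41.4 in control libraries, the guanylate-binding protein gene GBP4 111 ± 79.8 and 107 ± 56.5, and the RNA-editing enzyme gene ADAR 52.7 ± 7.58 and 57.2 ± 17.7. PARP12 had an unadjusted p of 0.0470 with a difference of -0.52 on the log2 scale and did not pass (limma adjusted p = 0.792). The antiviral gene MX1 averaged 2.23 ± 2.503 in edited and 1.49 ± 1.07 in control libraries. Control library 6, with the most interferon tau, summed to 847 over this list, the highest of the controls and just under the highest edited library. A link between the 2 in this library was not tested.

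**Figure D5:**
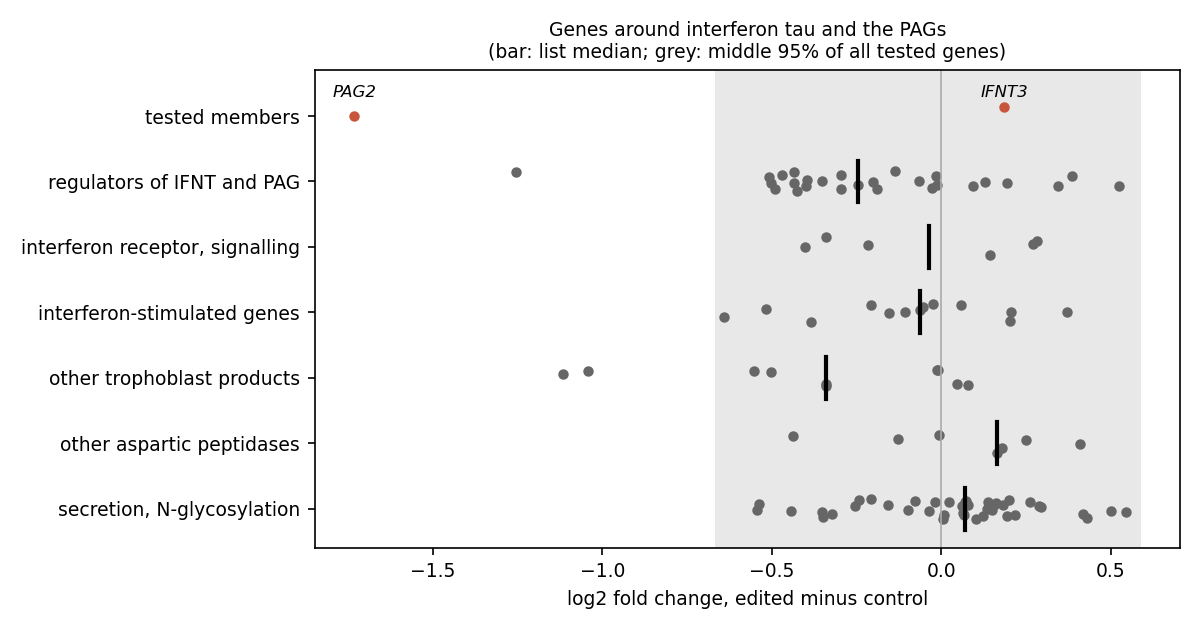
Log2 fold change (edited minus control, x axis) of the tested members and of the tested genes of 6 lists (rows), with bars at list medians and a grey band over the middle 95% of all tested genes, -0.67 to 0.59. PAG2, at -1.73, lies farther out than any gene of these 6 lists, and most genes of the lists lie within the band.

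Among other secreted and endocrine products of the ruminant trophoblast, 19 of 39 listed genes were present and 10 tested, with a median log2 fold change of -0.34 and 8 negative values. TKDP1, which encodes a Kunitz-domain protein of the trophoblast, was under the filter, with 26 reads in the edited and 26 in the control group. The most abundant were PLAC8 at 1161 ± 433 normalized reads in edited and 1105 ± 260 in control libraries, the co-chaperone and prostaglandin synthase gene PTGES3 at 889 ± 165 and 867 ± 189, the cyclooxygenase gene PTGS2 at 619 ± 434 and 744 ± 378, and the metalloproteinase inhibitor gene TIMP1 at 467 ± 218 and 485 ± 214 (mean ± SD, n = 6 each). PTGES, the inducible prostaglandin E synthase gene, is named because of its value, a log2 fold change of -1.12 ± 0.53 with an unadjusted p of 0.0495 that did not pass (limma adjusted p = 0.792).

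Relatives of the PAGs and genes of their secretory route were the last lists. Of 18 genes listed as aspartic peptidases outside the PAG family, 10 were present and 7 tested, with a median log2 fold change of 0.16 and 0 at an unadjusted p under 0.05 (limma). The counts of 18 and 10, and the sums of this list given above, include PAG1, the gene set aside at the start. PAG1 was not checked to be an aspartic peptidase. It was under the filter, at 5.42 ± 7.42 in edited and 10.7 ± 7.76 in control libraries, and so not among the 7. The lysosomal peptidase gene CTSD averaged 280.5 ± 72.1 normalized reads in edited and 303 ± 176 in control libraries, and the signal peptide peptidase gene HM13 103 ± 22.7 and 92.0 ± 21.7, with SPPL2A at a log2 fold change of 0.25. Of 44 genes for protein translocation, signal peptide removal and N-glycosylation, which a secreted glycoprotein needs, 41 were tested, with a median of 0.07. At an unadjusted p under 0.05, 4 of these were higher and 1 was lower (limma), beside 5.88% of all tested genes in either direction. The abundant chaperone genes CANX and CALR stood at 0.06 and 0.07. The translocon genes SSR4 and SEC61G had log2 fold changes of -0.08 and 0.29.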

How the data were processed

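The members and gene lists were chosen with earlier results of these data known. Per the submitters' processing notes, the authors used Trimmomatic, HISAT2, featureCounts and DESeq2 with the build ARS-UCD1.2; versions, annotation, strandedness and the handling of multiply matching reads are not given in the sources used here. The deposited signal values are read counts that the authors divided by 1 size factor per library, as the steps between the values show. The same table holds the authors' log2 fold changes with standard errors, their test statistic, a score that was not used, and, per the file headers, p-values before and after adjustment.

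Dividing by the step between low values gave whole reads for 100% of values (tolerance 0.05 reads). At 3 reads the level is 1.72 to 5.56 normalized reads in edited and 1.71 to 4.62 in control libraries, a limit for counting error only. Groups and replicate numbers came from the titles. Genes averaging 10 or more normalized reads across 12 libraries were tested on log2(value + 1) with limma 3.58.1 in R 4.3.3 (trend, edited minus control, two-sided), adjusted by Benjamini-Hochberg over 8884 genes at 0.05. On this scale changes of weakly expressed genes come out too small. Every adjusted p is limma's unless another tool is named. edgeR 4.0.16 called 1 gene and DESeq2 1.42.0 called 5 on the recovered reads. Intervals for genes under the filter are exact binomial, conditional on the summed reads. The limma fit was also run on simulated counts with changes put into genes drawn at random. That run did not address genes with the spread of PAG2 or IFNT3 in particular, and its outcome is not reported here.

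Named were all members, TEAD4, from each list the genes that passed and otherwise the 4 most abundant, and the 5 genes most like PAG2 and IFNT3; other names were chosen after their values were seen, and some genes the rule names are not reported here. PAG11 and IFNT2 were too low for that search, and IFNT3 took the place of IFNT2. A search for promoter motifs was not run, as no bovine sequence was used here. Gene symbols were matched to the annotation of ARS-UCD2.0 for 95.1% of names. The mouse libraries of the study, where 0 rows match the rule, were not used.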

Additional observations from a re-analysis of the deposited data

Results flagged for a closer look

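On the scale of normalized reads, the highest library in 3 of the 8 groups of 6 libraries checked stood farther from the next than Dixon's 95% limit for the gap divided by the range, a limit that chance passes in about 1 in 20 groups of normally distributed values, which skewed read counts are not. PAG2 in edited library 3 stood at 138.6 normalized reads, with the next edited library at 26.1 (gap over range 0.858). IFNT3 in control library 6 stood at 205.6, with the next control at 43.9 (0.823). IFNT2 in control library 6 stood at 7.74, with the next control at 1.73 (0.776), which is 7 reads beside 3. On the scale of log2(normalized reads + 1), tried after seeing the data, the same ratios were 0.585, 0.507 and 0.536, and 0 of the 3 passed the limit. Without both libraries, an alternative chosen after seeing the data, PAG2 differed by -1.97 (limma adjusted p = 0.796) and IFNT3 by 0.61 (adjusted p = 0.828).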

How the results depend on the processing

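PAG2 kept its negative sign under all 23 alternatives, from -2.39 to -1.42, with adjusted p from 0.477 to 0.971, and 0 members were called under any of 24. IFNT3 (0.19) changed sign with edgeR (-0.34, adjusted p = 0.920), with DESeq2 (-0.30, adjusted p = 0.954), without edited library 4 (-0.04) and without control library 1 (-0.16), and ran from -0.16 to 0.71 with 1 library omitted at a time; its adjusted p ran from 0.828 to 0.998 over its 24 alternatives. The cause was not tested. The count of genes called over all genes was 1, and 5 with DESeq2 (LOC101905257, HIST1H1C, TEAD4, GNB4 and LAMA1, listed because so few). The control SD ran from 0.829 to 1.99 for PAG2 and from 0.823 to 1.65 for IFNT3 when 1 control was left out. The replicate block, with the number in the titles as a factor, gave PAG2 an unadjusted p of 0.00397 and an adjusted p of 0.700. It gave IFNT3 an adjusted p of 0.926 and 1 call over all genes. Over the limma alternatives the unadjusted p of PAG2 ran from 0.000356 without control library 2 to 0.0860 with the robust option of limma. With DESeq2 it was 0.0564. The interval of PAG2 with the robust option was -3.76 to 0.29 and so covered 0. It also did without control library 3, control library 6 or edited library 5. Deviations of same-numbered libraries correlated over 0.1 in 2 of 6 pairs, so the numbers are not taken to pair the libraries. The depth limits PAG11 and IFNT2, which had 0 to 7 reads per library.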
